A study of Drosophila melanogaster with 6 samples.

Results

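The Smyd genes of Drosophila melanogaster encode proteins with a SET domain, the catalytic fold of most lysine methyltransferases, which is split by a MYND zinc finger. The 6 members described here are Smyd3, Smyd4-1, Smyd4-2, Smyd4-3, Smyd4-4 and Smyd5, taken by name through the gene identifier of the array annotation. Each was read by 1 probe set that the annotation assigns to that gene alone, so the family holds 6 of the 18769 probe sets and 6 of the 11982 named genes measured. The family was singled out with the mutant and wild type values of these same arrays in view. Its changes between genotypes are therefore given as a description, with standard errors and without a p-value.

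SMYD proteins transfer methyl groups to lysines of histones and of cytoplasmic proteins, and the MYND finger binds partner proteins. In mammals SMYD3 is known as a methyltransferase of histones and of a signalling kinase, SMYD4 for its role in heart development, and SMYD5 as a histone methyltransferase. In the fly, Smyd4-2, which the gene table also lists as dSmyd4, has been studied in muscle development, and Smyd3 carries the synonym Bzd. Kdm5, the gene mutated here, encodes a demethylase that removes methyl groups from lysine 4 of histone H3.

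RNA came from wing imaginal discs, larval epithelia from which the wing and dorsal thorax of the adult develop, taken at 96 h AED from larvae of the third instar. The wild type group was the strain w1118 and the other group the strain kdm510424, labelled kdm5 mutant, each with 3 biological replicates of about 60 pooled discs and 1 Drosophila Genome 2.0 array per replicate. The labels name no other allele or agent in either group. The mutant strain had no control of its own background, so strain and mutation cannot be told apart, and whether replicates came from separate crosses is not stated in the labels, so errors measure the spread between these samples.

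Kdm5 followed the labels. Its log2 signal was 10.09, 10.15 and 9.98 on the wild type arrays and 4.67, 3.70 and 4.49 on the mutant arrays, a log2 difference of -5.79 with an SE of 0.23 (limma, adjusted p = 6.18e-06 by Benjamini-Hochberg over all probe sets). The mutant mean, 4.29, was under the median of all probe sets, 4.44, so background bears on this size. An exact two-sided permutation test gave p = 0.1, which is the lowest p possible with 3 arrays in each group. Wing disc markers were bright in both genotypes: nub, a wing pouch transcription factor, read 11.99 ± 0.04 and 12.00 ± 0.14, vg 11.20 ± 0.02 and 11.02 ± 0.02, and ap 10.96 ± 0.06 and 10.99 ± 0.08 (log2, SD, n = 3, wild type first). Of 7 disc markers measured, 3 passed the test, all lower (vg, rn and Dll), with a median change of -0.18. Of the 11982 named genes, each read by its probe set of highest mean, 21.7% passed. Of the disc markers 0 to 1 passed when 1 array was left out, 0 with arrays centred on either set of spike-in controls, and 1 higher and 1 lower with probe sets averaged per gene. Array medians lay between 4.42 and 4.45, and across probe sets arrays of the same genotype correlated at 0.998 to 0.999 and those of different genotypes at 0.989 to 0.99. The number of arrays limits the precision of every value below.

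In kdm5 mutant discs Smyd4-2 was lower by about 1 log2 unit, while Smyd3, Smyd4-1 and Smyd4-4 were higher by 0.25 to 0.55 units. Those 4 of 6 probe sets passed the adjusted p of 0.05 of the fit over all probe sets, 3 higher and 1 lower in the mutant. Over all probe sets 18.3% passed, 8.49% higher and 9.84% lower. In a fit of only the probe sets above the median level 43.0% passed, and 4 of the 5 members kept in it. Smyd5 and Smyd4-3 did not pass. The arrays of the genotypes did not overlap for 5 of 6 members, all but Smyd4-3, with 4 members higher and 1 lower. Over all probe sets the arrays did not overlap in 36.1%, 18.0% higher and 18.2% lower. Since the family was chosen on this contrast, nothing is read from these counts. The same holds for the calls of single members in the refits below, which reuse these arrays. The median change of the 6 members was 0.16, against 0.01 over all probe sets. Within the family the changes thus ran in both directions, from -0.98 to 0.55.

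**Figure D1:**
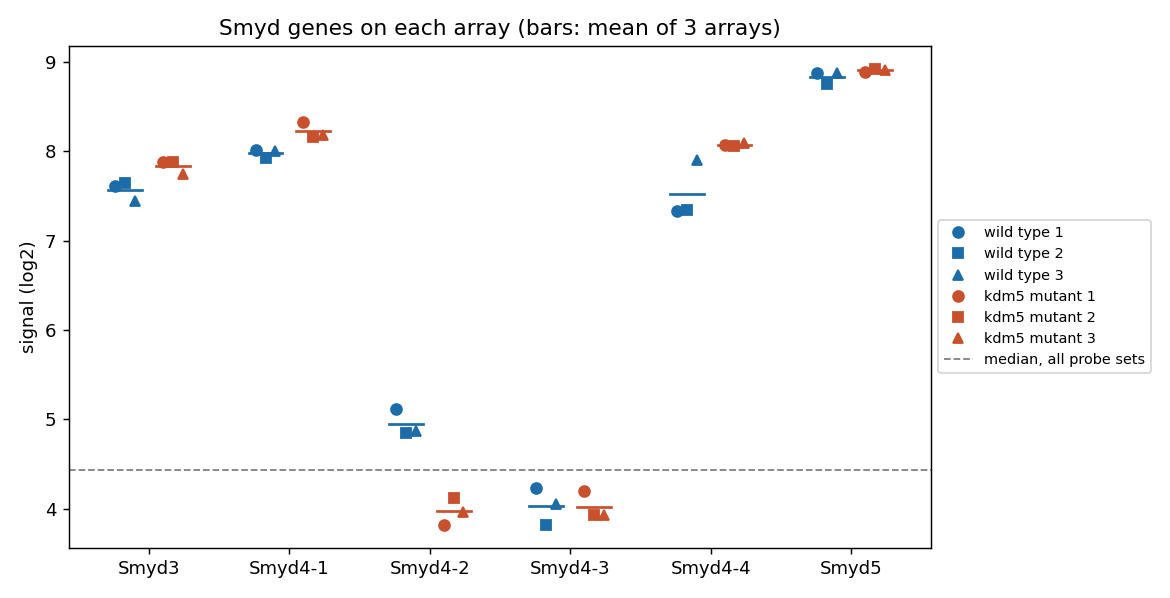
Log2 signal of each Smyd gene on each array (vertical axis), with wild type in blue, kdm5 mutant in orange, marker shapes for the replicate number, bars for the mean of 3 arrays and a dashed line at the median of all probe sets, 4.44. Smyd4-2 crosses that line between the genotypes, Smyd4-3 lies below it on all arrays, and the other 4 genes lie above it. Heights of different genes come from different probes and are not comparable.

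Smyd3, the single fly member of the class named after mammalian SMYD3, read 7.61, 7.64 and 7.44 on the wild type arrays and 7.88, 7.88 and 7.75 on the mutant arrays (log2 signal). The lowest mutant array lay above the highest wild type array by 0.10. The mean went from 7.56 ± 0.11 to 7.83 ± 0.08 (SD, n = 3), a change of 0.27 ± 0.07 (SE), or 1.21-fold higher. The change stayed between 0.21 and 0.31 with any 1 array left out, but Smyd3 was past the threshold in only 2 of these 6 fits, those without wild type replicate 2 (0.31) and mutant replicate 3 (0.31). It was not past it without wild type replicate 1 (0.29) or 3 (0.21), nor without replicate 1 or 2 of the mutant (0.25 in both fits).

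The 4 genes named after mammalian SMYD4 differed in the direction of their values. Smyd4-2 had the largest change of the family. Its log2 signal was 5.12, 4.85 and 4.87 in wild type and 3.82, 4.13 and 3.96 in the mutant. All mutant arrays lay below all wild type arrays, with a gap of 0.72 between the groups. The spread within each genotype was small beside this gap, with a range of 0.27 in wild type and 0.30 in the mutant. The mean went from 4.95 ± 0.15 to 3.97 ± 0.15 (SD, n = 3), a change of -0.98 ± 0.10 (SE, 95% confidence interval -1.21 to -0.74), which corresponds to 1.97-fold lower signal. Of all probe sets 2.73% had a larger absolute change. With any 1 array left out the change lay between -1.05 and -0.89. Smyd4-2 was past the threshold in all 6 of these fits and under all 10 other settings tried. These refits reuse the arrays on which the family was chosen, so passing in them is not separate evidence.

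The wild type signal of Smyd4-2 stood only a little above 4.44, the median of all probe sets, and the mutant signal stood below it, so the array's background bears on the size of this fold. Most measured transcripts of differentiated muscle, in which Smyd4-2 has been studied in the fly, were also lower in the mutant. Muscle was not alone: the salivary gland and fat body marker lists below had median changes of -2.56 and -1.87. The haemocyte, germline and testis, myoblast and trachea lists were at -0.14, -0.16, 0.15 and 0.59. Of 9 muscle genes measured 8 fell and 1 rose (limma, Benjamini-Hochberg over all probe sets), with a median change of -0.89. Over the named genes 11.9% fell, 9.76% rose and the median change was 0.00. These shares include dim genes, and 43.0% passed when only probe sets above the median level were fitted. The mean log2 signal of the muscle list was 6.83 to 6.99 on wild type arrays and 5.89 to 6.20 on mutant arrays. The sum of its linear signals, on the log2 scale, was 10.49 to 10.75 and 9.80 to 10.01. The myosin light chain gene Mlc2 fell from 4.52 ± 0.18 to 3.94 ± 0.21 (SD, n = 3). Its mutant signal was under the median of all probe sets, so background bears on its fold. A brighter gene of the list, Mlc1, fell from 8.99 ± 0.27 to 7.62 ± 0.22 (SD, n = 3). Between 7 and 8 muscle genes fell with any 1 array left out, and the one that rose, Act87E, did not pass without wild type replicate 1 or without replicate 1 or 2 of the mutant. The part of muscle cells in the Smyd4-2 value was not tested. In pooled discs fewer cells of a type and less RNA per cell cannot be told apart.

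Smyd4-4 had the largest increase of the family. Its log2 signal was 7.34, 7.34 and 7.90 in wild type and 8.07, 8.05 and 8.09 in the mutant. The mutant arrays agreed within 0.03, whereas wild type replicate 3 lay far above the other wild type arrays and 0.16 below the lowest mutant array. The mean went from 7.52 ± 0.32 to 8.07 ± 0.02 (SD, n = 3), a change of 0.55 ± 0.15 (SE), or 1.46-fold higher. Without wild type replicate 3 the change was 0.73 ± 0.05, and this was the single fit with 1 array left out in which Smyd4-4 was past the threshold. It was 0.45 without wild type replicate 1 or without wild type replicate 2, 0.55 without mutant replicate 1 or 2, and 0.54 without mutant replicate 3, and was not past the threshold in any of these.

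Smyd4-1 read 8.01, 7.92 and 8.003 in wild type and 8.33, 8.15 and 8.18 in the mutant (log2 signal). The groups did not overlap, with a gap of 0.15 between them. The change was 0.25 ± 0.06 (SE), or 1.19-fold higher, from 7.98 ± 0.05 to 8.22 ± 0.09 (SD, n = 3). It was past the threshold in 0 of the 6 fits that left out 1 array, whichever of the 6 it was, where the change ran from 0.19 to 0.28.

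Smyd4-3 was dim on every array. It read 4.24, 3.82 and 4.05 in wild type and 4.21, 3.93 and 3.93 in the mutant, below the median of all probe sets on 6 of 6 arrays. The groups overlapped. The change was -0.01 ± 0.12 (SE, 95% confidence interval -0.30 to 0.27), and its sign turned with the scaling, to 0.17 and 0.05 with arrays centred on the hybridization and the polyadenylated spike-in controls. By this interval a difference of up to about 0.3 in either direction was not excluded.

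Smyd5, the fly counterpart of mammalian SMYD5, read 8.87, 8.75 and 8.87 in wild type and 8.88, 8.92 and 8.90 in the mutant (log2 signal). The groups were separate by 0.01, less than the spread within either of them. The mean was 8.83 ± 0.07 and 8.90 ± 0.02 (SD, n = 3), and the change was 0.07 ± 0.05 (SE, 95% confidence interval -0.06 to 0.20). Without wild type replicate 2, the lowest array, it was 0.03, and with each of the other arrays left out it lay between 0.06 and 0.09.

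**Figure D2:**
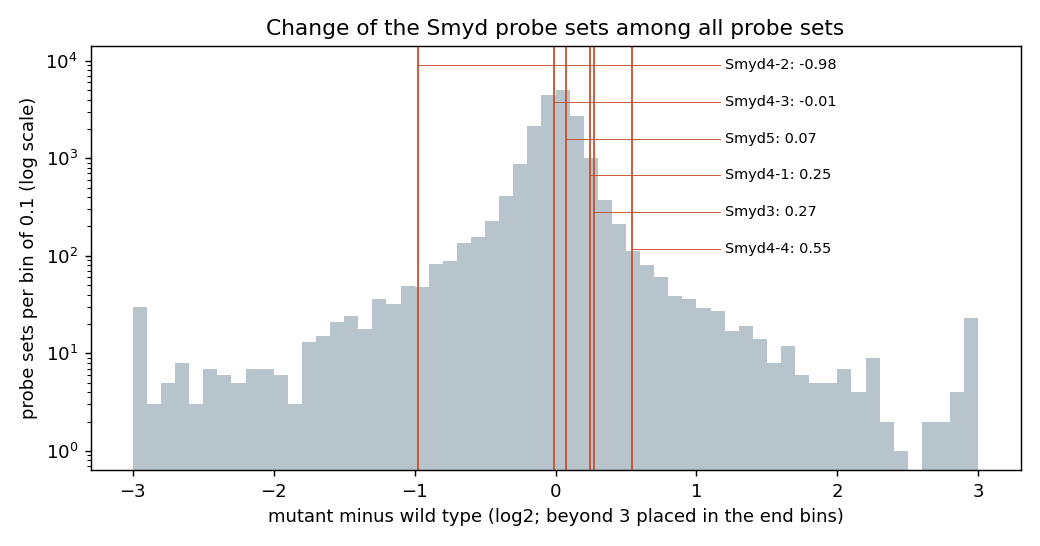
Number of probe sets (vertical axis, log scale) by log2 difference of mutant minus wild type (horizontal axis), with an orange line at each Smyd gene. Smyd4-2 at -0.98 lies in the lower tail and Smyd4-4 at 0.55 in the upper one, while Smyd4-3 and Smyd5 lie near 0.

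The directions of Smyd3, Smyd4-1, Smyd4-2, Smyd4-4 and Smyd5 were those above under each scaling tried, but their size moved with spike-in centring. Centring on the hybridization spike-ins took the median change over the whole array from 0.01 up to 0.19, and centring on the polyadenylated ones took it to 0.08. With the hybridization spike-ins Smyd4-4 read 0.73, Smyd3 0.45, Smyd4-1 0.43, Smyd5 0.25 and Smyd4-2 -0.80, and Smyd5 was then past the threshold. Centring shifts all probe sets of an array by the same amount, so changes relative to the median of all probe sets cannot alter. By this construction they were the same as deposited and with either set of spike-ins. Smyd4-4 was at 0.54, Smyd3 at 0.26, Smyd4-1 at 0.24, Smyd5 at 0.06 and Smyd4-2 at -0.99.

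The SmydA genes are the branch of SET and MYND proteins that arthropods expanded. All 9 listed genes were measured, and 1 passed the test. SmydA-1 fell from 5.08 ± 0.16 to 4.50 ± 0.07 (SD, n = 3), a change of -0.58 ± 0.09 (SE, adjusted p = 0.00324, limma), and it passed under all 16 alternatives. It ended close to the median of all probe sets, so background bears on its fold too. Of the other 8, 5 had both genotype means below that median, and changes of the 8 ran from -0.23 for SmydA-5 to 0.17 for SmydA-3. The median change of the list was -0.14, against 0.00 over the named genes, of which 21.7% passed. Whether Smyd and SmydA genes differ was not tested.

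Proteins with a MYND finger and no SET domain include nvy, a corepressor of the ETO family, the transcription factor Deaf1, Zmynd10, which serves dynein arm assembly, and Zfrp8. None of these 4 passed the limma test, and 1 had an unadjusted p under 0.05. Zfrp8, taken by the rule for lists with no call, read 8.71 ± 0.05 and 8.55 ± 0.01 (SD, n = 3), a change of -0.17 ± 0.05 (SE, adjusted p = 0.0594, limma), with an adjusted p of 0.0156 to 0.893 over its alternatives. The median change of the list was 0.00.

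**Figure D3:**
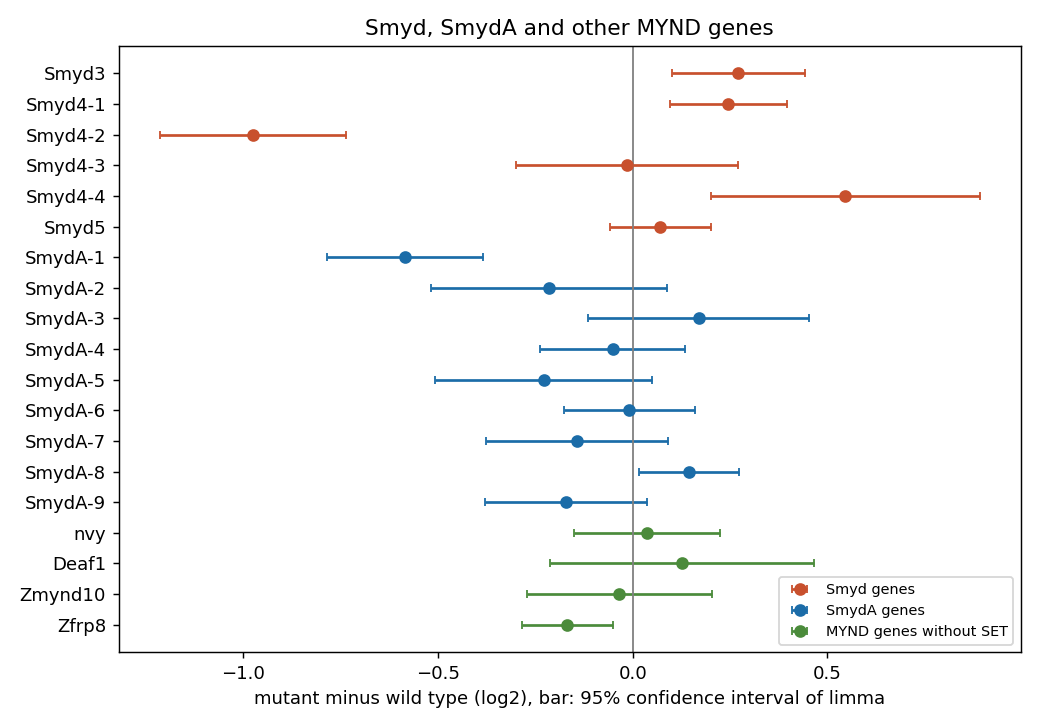
Log2 difference of mutant minus wild type (horizontal axis) of the 6 Smyd genes in orange, the 9 SmydA genes in blue and 4 MYND genes without a SET domain in green, with bars for the 95% confidence interval. Smyd4-2 at -0.98 and SmydA-1 at -0.58 lie lowest of the 19 genes drawn, and Smyd4-4 at 0.55 highest.

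Among other SET-domain genes 11 of 16 listed were analysed here, and 2 passed the test, 1 higher and 1 lower, against 21.7% of named genes. Set1, ash1, G9a, egg and Su(var)3-9 had no probe set assigned to them alone, so nothing is known of them here. Set8, the methyltransferase that adds the first methyl group to lysine 20 of histone H4, rose by 1.78 ± 0.12 (SE, adjusted p = 7.18e-05, limma), from 5.997 ± 0.23 to 7.78 ± 0.11 (SD, n = 3), and passed under all 16 alternatives. E(z), the Polycomb methyltransferase of lysine 27 of histone H3, changed by -0.22 ± 0.06 (SE, adjusted p = 0.0395, 0.00695 to 0.644 over its alternatives, limma). E(z) passed in 1 of 6 fits with an array left out, that without mutant replicate 3, and its change in these fits ran from -0.26 to -0.17. The median change of the 11 was 0.12. With the hybridization spike-ins 7 of them passed, all higher, in a fit that called 38.5% of all probe sets.

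Genes that act with the methyltransferases and demethylases of lysine 4 of histone H3 formed a list of 13, all measured, of which 9 did not pass. Of the 13, 3 fell and 1 rose, with a median change of 0.03, where 11.9% of named genes fell and 9.76% rose. This split turned with the scaling, to 6 higher and 1 lower with the hybridization spike-ins and to 2 higher and 0 lower with the polyadenylated ones. None of the 13 lay below the median level in both genotypes. With only the probe sets above that level fitted, 43.0% of them and 7 of the 13 passed. Hcf, host cell factor, whose mutant mean of 4.21 was under the median of all probe sets, changed by -0.55 ± 0.15, the menin gene Mnn1 by 0.39 ± 0.11 and ash2, a subunit shared by the methyltransferase complexes, by -0.20 ± 0.05 (log2 change ± SE, adjusted p = 0.0389, 0.0403 and 0.0298, limma). The fourth was Su(var)3-3, a demethylase, at -0.19 ± 0.05 (SE, adjusted p = 0.0463, limma), named after its value was seen. Over the alternatives the adjusted p of the 4 ran from 0.00745, 0.00269, 0.00185 and 0.00676 to 0.119, 0.435, 0.884 and 0.936. With any 1 array left out 0 to 2 of the 13 passed, none of them when the array left out was replicate 1 or 2 of either genotype, 1 without wild type replicate 3 and 2 without mutant replicate 3, and Mnn1 read 0.09 with its probe sets averaged.

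Mammalian SMYD3 is known to be stimulated by the chaperone HSP90. Of 8 genes of the HSP90 machinery 5 were analysed here, 2 fell, against 11.9% of named genes, and the median change was -0.12. The 3 left out include Hsp83, the HSP90 gene of the fly, which had no probe set assigned to it alone. The others, Hop and Ahsa1, were not matched to a gene identifier by name. The myosin chaperone gene unc-45 changed by -0.31 ± 0.07 and STUB1, a ubiquitin ligase that binds chaperones, by -0.22 ± 0.05 (log2 change ± SE, adjusted p = 0.0167 and 0.0323, limma, and up to 0.275 and 0.729 over the alternatives). Neither passed when the array left out was replicate 1 or 2 of wild type or replicate 2 or 3 of the mutant, nor with centring on either set of spike-ins, while without mutant replicate 1 unc-45 alone passed. Over all 6 left-out arrays unc-45 read -0.37 to -0.27 and STUB1 -0.24 to -0.18. None of the 5 genes lay below the median level in both genotypes. Fitting only the probe sets above that level called 43.0% of them and 3 of the 5 genes.

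Other tissues that adhere to or lie within dissected discs were followed with marker lists. They are to be read against the 11.9% of named genes that fell and the 9.76% that rose. These shares include dim genes, and 43.0% passed when only probe sets above the median level were fitted. Only the germline and testis list held genes below that level in both genotypes. Salivary gland markers fell in 6 of 7 cases (median change -2.56) and fat body markers in 3 of 4 (-1.87). Haemocyte markers fell in 3 of 7 cases and rose in 1 (-0.14), and germline and testis markers fell in 3 of 10 (-0.16). The called haemocyte markers numbered 2 without wild type replicate 3 or without mutant replicate 2, and none of them rose in 4 of the 6 fits with 1 array left out. With the filter on dim probe sets, which removed the called markers bam and Mst87F before the test, 1 germline and testis marker was called. Of 4 tracheal markers 2 rose, serp and verm, and 1 fell, Gasp (0.59). These were bright in wild type, at 10.00, 9.63 and 11.79. Gasp was not called lower under either spike-in centring nor without wild type replicate 2 or 3 or mutant replicate 1 or 2. The remaining marker, btl, did not pass, at 5.54 ± 0.22 and 5.76 ± 0.24 (SD, n = 3). Whether the signal of these genes came from trachea was not tested. Of 5 myoblast markers 1 rose (0.15). Mean log2 signal of the salivary list was 8.29 to 9.54 on wild type arrays and 6.31 to 6.41 on mutant arrays, and of the fat body list 6.68 to 8.18 and 5.36 to 5.64. The part of these tissues in the Smyd values was not tested.

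Smyd4-1, Smyd4-3 and Smyd4-4 lie on chromosome arm 2R, Smyd4-2 on 3L, Smyd5 on 3R and Smyd3 on X, so the members are spread over 4 arms. The nearest measured protein-coding gene on each side, taken from the RefSeq gene order and not part of the rule for named genes, gave 12 neighbours, of which 3 fell and 1 rose (limma), against 11.9% and 9.76% of named genes. Beside Smyd4-4, which was higher, SkpB, a relative of the ubiquitin ligase subunit gene Skp1, fell by 1.52 ± 0.05 on the log2 scale (SE, adjusted p = 3.37e-06, limma), from 5.91 ± 0.05 to 4.39 ± 0.04 (SD, n = 3). Its mutant signal was under the median of all probe sets, so background bears on its fold. OSCP1 on the other side changed by 0.06 ± 0.06. Next to Smyd4-2 the odorant-binding protein gene Obp69a changed by -0.41 ± 0.09 (SE, adjusted p = 0.0187, limma), dim in both genotypes at 3.55 ± 0.18 and 3.13 ± 0.02, and SCaMC by 0.17 ± 0.05 (adjusted p = 0.0541). Obp69a did not pass without mutant replicate 1, 2 or 3, and its change ran from -0.49 to -0.31 over all 6 left-out arrays. Flanking Smyd5, Oga, which encodes O-GlcNAcase, changed by -0.31 ± 0.06 and Ddrgk1 by 0.22 ± 0.06 (SE, adjusted p = 0.0152 and 0.0395, limma). Oga did not pass without mutant replicates 2 or 3 (-0.35 to -0.26 over the left-out arrays), and Ddrgk1 passed only without wild type replicate 3 among them (0.18 to 0.26). The neighbours of Smyd3, Smyd4-1 and Smyd4-3 did not pass.

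For the 2 members of largest change, the genes with the most similar profile were sought among 11976 other genes, by the root mean square difference over the 6 arrays after subtraction of each gene's wild type mean. Nearest to Smyd4-2 were CG30154, at a difference of 0.08, and PCNA2, a second gene for the replication clamp, at 0.10, where the median gene was at 0.71. CG30154 read 6.15, 5.85 and 6.03 in wild type and 4.96, 5.30 and 5.13 in the mutant, with mutant replicate 1 lowest, as in Smyd4-2. PCNA2 went from 6.15 ± 0.06 to 5.25 ± 0.13 (SD, n = 3). Nearest to Smyd4-4 were CG13667 at 0.09 and CG6204 at 0.10, where the median gene was at 0.44. In both, wild type replicate 3 stood above the other wild type arrays, at 7.09 against 6.61 and 6.68 in CG13667 and at 7.10 against 6.67 and 6.64 in CG6204. Both were picked for likeness to Smyd4-4 on all 6 arrays, so a high wild type replicate 3 value follows from the search. These likenesses were searched for, are descriptions of 6 arrays and carry no test.

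**Figure D4:**
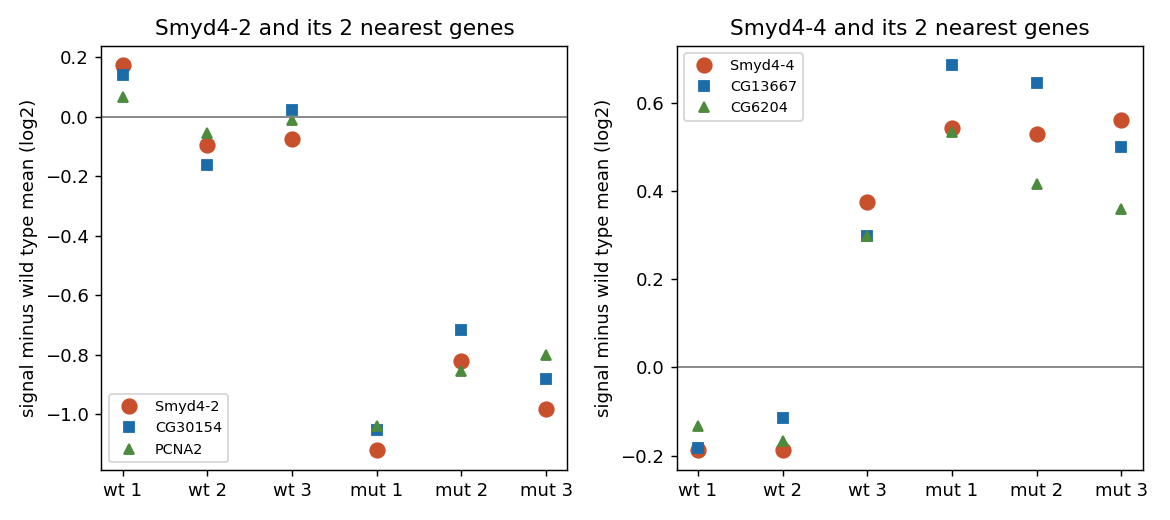
Log2 signal minus the wild type mean (vertical axis) on each array (horizontal axis, wt for wild type and mut for kdm5 mutant) for Smyd4-2 and Smyd4-4 and the 2 genes nearest to each. CG30154 and PCNA2 follow Smyd4-2 within 0.08 and 0.10 on root mean square, and wild type replicate 3 is high in Smyd4-4, CG13667 and CG6204 alike.

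**Figure D5:**
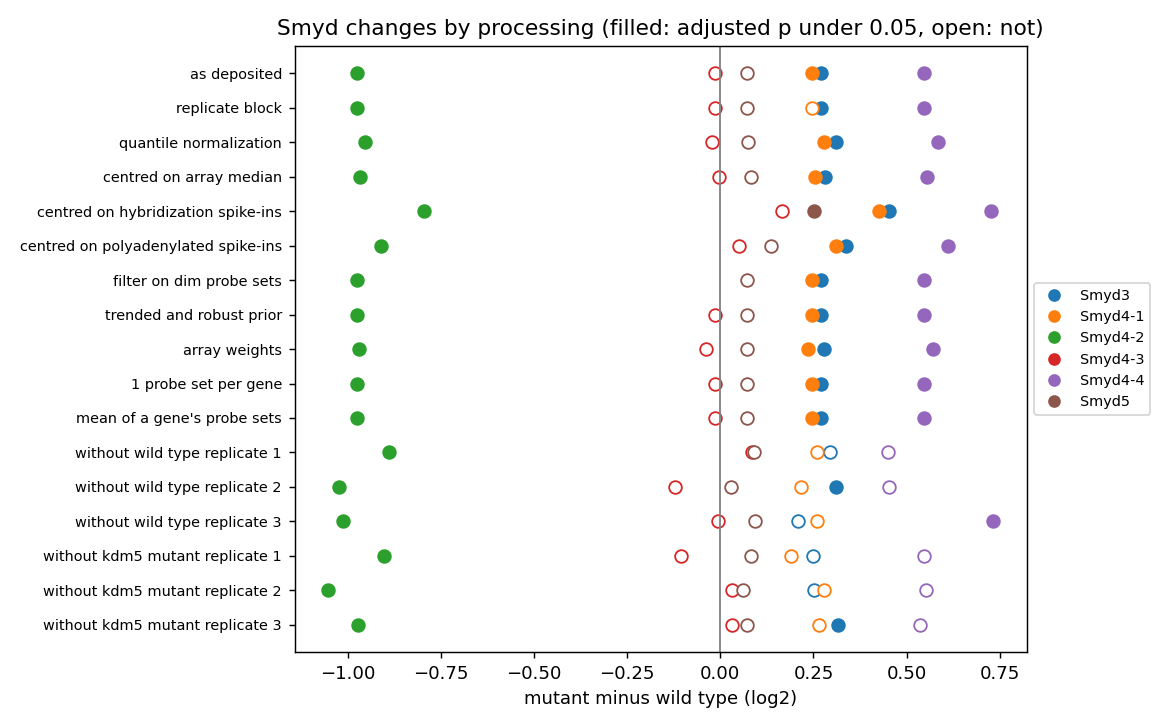
Log2 difference of mutant minus wild type for each Smyd gene (horizontal axis), for the values as deposited and each processing alternative (rows), filled where the adjusted p over all probe sets was under 0.05. Smyd4-2 stays between -1.05 and -0.80 and filled in every row, whereas Smyd3, Smyd4-1 and Smyd4-4 are open in most rows with 1 array left out.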

How the data were processed

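The deposited values are normalized log2 signal per probe set, made by the authors from Drosophila Genome 2.0 arrays. Per the submitters' processing notes the software was GCOS, Expression Console, PLIER and GCRMA, without saying which step each did. No detection call or genome build was at hand. Of 18952 probe sets 183 manufacturer controls were left out. The platform annotation gave 1 gene for 13647, several for 402 and none for 4720, and symbols of 13544 were updated by gene identifier with RefSeq's GCF_000001215.4 table (Release 6).

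All 18769 probe sets were fitted with limma 3.58.1 (lmFit, eBayes, R 4.3.3), genotype as the only term, two-sided, Benjamini-Hochberg over all at 0.05. The fit was also run on simulated data with known changes in a small part of the probe sets. In these arrays far more probe sets passed, so no result above rests on that run. Outside the Smyd family a gene is its brightest probe set. No 2 arrays shared more than 1 identical value.

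The members and lists were chosen with earlier results of these data known. Named genes are all members, Kdm5, of each related list up to 3 called genes of largest change or the brightest if none was called, and the nearest profiles. Marker lists covered disc, myoblast, muscle, fat body, salivary gland, haemocyte, germline and testis, and trachea. Alternatives were a replicate term, quantile normalization, median and spike-in centring, a filter on probe sets below the median, array weights, a trended robust prior, genes in place of probe sets (the brightest or the mean), and each array left out.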

Additional observations from a re-analysis of the deposited data

How the results depend on the processing

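Kdm5 kept its direction and its call under all 16 alternatives, at -5.98 to -5.50. The calls among the 6 Smyd genes numbered 3 to 5 under alternatives that kept all arrays and 1 to 2 with 1 array left out. Of all that was tested, the alternatives that kept all arrays called 13.3% to 43.0%. Fits with 1 array left out called 12.4% to 14.9%, so calls were fewer there across the whole array. Left-out arrays gave 1 to 2 calls for the SmydA genes, 0 to 1 for other MYND genes, 1 to 2 for other SET genes, 0 to 2 for the genes of histone H3 lysine 4 complexes and 0 to 2 for the HSP90 machinery, and such fits have fewer samples. Centring on the hybridization spike-ins, under which 38.5% of all probe sets were called, gave 3 SmydA (2 higher, 1 lower), 7 other SET (all higher), 7 histone H3 lysine 4 complex (6 higher, 1 lower) and 1 HSP90 calls (higher), against 1 lower, 1 higher and 1 lower, 1 higher and 3 lower, and 2 lower as deposited. It turned Zfrp8 to 0.013. The polyadenylated spike-ins gave 2 lysine 4 complex calls, both higher, and 0 HSP90 calls, with 15.6% of all probe sets called. Lower calls made up 53.7% of all calls as deposited, 38.7% with the polyadenylated and 12.8% with the hybridization spike-ins. Quantile normalization gave 7 lysine 4 complex calls (4 higher, 3 lower), as did the filter on dim probe sets. The filter tests fewer probe sets and leaves no value for Smyd4-3. Of all probe sets tested, quantile normalization called 18.9% and the filter 43.0%. With centring on the array median 1 other SET gene was called, and 18.3% of all probe sets. The filter, the trended robust prior, 1 probe set per gene and averaged probe sets each gave 1 other MYND call. In that order they called 43.0%, 23.4%, 24.4% and 24.5% of all that was tested. Where no construction shows it, the cause was not tested.

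Replicate numbers were shared between genotypes, but the deviations of same-numbered arrays from their group means correlated at 0.00, 0.01 and -0.11 across probe sets, so the numbers were not taken to pair the arrays. With the replicate block 3 Smyd genes were called (Smyd4-1 was not), 1 other SET gene, 1 lysine 4 complex gene and 1 HSP90 gene. That fit called 13.3% of all probe sets. Probe sets near the median level have no detection call here, which limits, among others, Kdm5, Smyd4-2, Hcf and SkpB in the mutant and Smyd4-3 in both genotypes.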
